A study of Mus musculus with 3 samples.

Results

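The genes described are 10 that endothelial cells of brain vessels use to seal and serve the blood-brain barrier: the junction genes Cldn5, Ocln, Tjp1 and Cdh5, the transporters Slc2a1, Slc7a5, Mfsd2a and Slco1a4, and the efflux pumps Abcb1a and Abcg2. They were chosen by name, all 10 were found among the 28676 genes of the count table, and each was followed in endothelial barcodes and in mural cells, choroid plexus and glia of the medial vestibular nucleus (MVN), a brainstem nucleus that receives input from the inner ear. Cells were dissociated from C57BL/6 mice 1 day after surgery on the right ear at postnatal day 20. In the unilateral labyrinthectomy (UL) group the vestibular organ of that ear was destroyed, and its MVN was collected from the operated side (ULI) and from the opposite side (ULC). The study names 11 UL mice in all for both sides together, and how they divide between the sides is not given in the sources used here, so the 2 libraries may hold cells of the same animals. Control was the MVN of 10 mice in which only the tympanic bulla was opened. The treatment label gives labyrinthectomy even for control, whose identity here rests on its source name and on the methods of the study. Each group was 1 library of pooled mice, so there was no replicate, no test between groups was possible, and a group could not be told apart from its library.

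Endothelial cells of brain capillaries are joined by tight junctions that close the paths between cells, so that many nutrients pass through carriers in the cell membrane. Solute carriers bring in glucose, amino acids and lipids, and ATP-driven pumps return many foreign compounds to the blood. Adherens junctions hold the cells together beneath the tight junctions.

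A barcode was taken as endothelial if it held a unique molecular identifier (UMI) of at least 2 of the 4 genes Flt1, Pecam1, Ly6c1 and Itm2a, none of which is among the 10. Of 13964 barcodes with at least 200 genes, 469 met the rule: 120 of 4813 in ULI (2.49%, interval 2.07 to 2.97), 165 of 4544 in ULC (3.63%, 3.11 to 4.22) and 184 of 4607 in control (3.99%, 3.45 to 4.60). They held 407894, 699545 and 1070398 UMIs, with medians of 2404, 2591 and 4361 per barcode. Levels are given as CPM, the UMIs of a gene per 1000000 UMIs summed over the barcodes of a class in 1 library, and intervals are exact 95% intervals (Poisson for CPM, binomial for shares and ratios) that cover counting error only. Levels of different genes are not set against each other, since the position from which the UMIs were read, and so any part of gene length, is not given in the sources used here. A ratio of 2-fold or more is a log2 ratio of at least 1 or at most -1.

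The barcodes that met the rule were not all alike. When all barcodes were clustered with the 10 genes left out, 400 of the 469 fell into 1 endothelial-like cluster (101 in ULI, 135 in ULC and 164 in control), and 69 fell into clusters of other cells (19, 30 and 20). The 69 were deep, with medians of 4040, 9606 and 7442 UMIs, against 2178, 2005 and 4246 inside the cluster. They held 33.6% of the endothelial UMIs in ULI, 44.4% in ULC and 23.2% in control, but only 2.16%, 1.8% and 0.744% of the UMIs of the 10 genes. Outside the cluster Ttr, the main transcript of choroid plexus, stood at 41245, 76352 and 10637 CPM, and inside it at 292, 1640 and 55.9 CPM. A single barcode held 54.6%, 11.4% and 87.7% of the Ttr UMIs of all endothelial barcodes. The values outside the cluster in ULI and control thus rest largely on 1 barcode each. The rule thus lowers the level of every barrier gene, most in ULC, and the levels of the 10 genes are compared between libraries in both sets. Other values are over all endothelial barcodes unless the cluster is named. Of the barcodes meeting the rule, 17, 30 and 5 were marked as doublets from Scrublet scores, of which 3, 5 and 0 lay outside the cluster. The cut-off of the score may differ between libraries. Summed markers of other cells in all endothelial barcodes were, for ULI, ULC and control, 14403, 35709 and 2555 CPM for choroid plexus (7 of 7 genes detected in each), 12224, 24873 and 24391 CPM for oligodendrocytes (6 of 6) and 1062, 836 and 998 CPM for mural cells (9 of 9). Their part in the ratios below was not tested beyond the values inside the cluster.

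The DNA before the start sites of these genes differs in its content of CG, the pair of bases at which mammalian DNA is methylated. RefSeq promoter sequences (GRCm38.p6) were matched for 8 of the 10 genes, the exceptions being Cdh5 and Slc7a5. Shown are the 250 bases before the start of 2 genes with few UMIs in glia, Cldn5 and Slco1a4 (which choroid plexus also holds), and of 2 that astrocytes hold as well, Slc2a1 and Mfsd2a, with each CG in capitals. They lie at chr16:18776597-18776846 (plus strand), chr6:141856221-141856470 (minus), chr4:119108495-119108744 (plus) and chr4:122961189-122961438 (minus).
Cldn5: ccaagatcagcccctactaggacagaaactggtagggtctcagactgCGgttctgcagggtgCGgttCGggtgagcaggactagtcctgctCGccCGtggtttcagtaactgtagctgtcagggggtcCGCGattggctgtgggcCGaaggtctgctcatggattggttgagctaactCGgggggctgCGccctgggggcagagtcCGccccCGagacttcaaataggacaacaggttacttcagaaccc
Slco1a4: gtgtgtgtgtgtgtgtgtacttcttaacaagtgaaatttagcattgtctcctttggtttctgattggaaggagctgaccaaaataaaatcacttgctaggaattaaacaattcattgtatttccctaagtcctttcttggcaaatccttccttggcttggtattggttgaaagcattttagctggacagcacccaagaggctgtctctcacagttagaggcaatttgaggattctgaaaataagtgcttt
Slc2a1: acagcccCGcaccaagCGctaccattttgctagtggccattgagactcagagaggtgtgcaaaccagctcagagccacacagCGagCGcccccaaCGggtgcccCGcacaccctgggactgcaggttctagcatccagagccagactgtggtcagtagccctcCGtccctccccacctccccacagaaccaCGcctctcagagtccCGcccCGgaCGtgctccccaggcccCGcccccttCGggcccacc
Mfsd2a: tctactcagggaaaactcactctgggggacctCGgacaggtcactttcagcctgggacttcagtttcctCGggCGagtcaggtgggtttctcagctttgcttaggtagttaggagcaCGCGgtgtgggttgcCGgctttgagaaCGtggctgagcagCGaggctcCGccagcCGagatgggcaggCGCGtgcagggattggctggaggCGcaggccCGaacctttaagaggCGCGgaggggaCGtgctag
The Cldn5 stretch holds 12 CG, that of Slco1a4 0, that of Slc2a1 13 and that of Mfsd2a 17, beside a median of 6 over 27025 mouse promoters (quartiles 2 and 16), of which 91.7% hold at least 1. Of the other matched genes, Ocln holds 14 and 22 at its 2 start sites, and Tjp1 22. Abcg2 holds 3, 10 and 23 at its 3 start sites, and Abcb1a 0. The RefSeq start site of Abcb1a lies upstream of the gene's position in GENCODE, and that of Tjp1 lies inside the gene. The CG content of Cldn5 thus lay nearer to that of Slc2a1 and Mfsd2a than to that of Slco1a4. Cores of 3 families of endothelial factors were searched on both strands of the 300-base promoters (250 bases before to 50 after the start), at every start site listed: CGGAAG (ETS) in 1 of 8 genes, against 17.2% of all promoters, CTTTGA (TCF/LEF) in 2 of 8, against 16.2%, and ACAAAG (SOX) in 1 of 8, against 18.7%. The ETS match lay in Tjp1, the SOX match in Abcb1a and the TCF/LEF matches in Abcb1a and Mfsd2a. The TCF/LEF and SOX letters share CAAAG, and a match is not a binding site.

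In mm10 (GENCODE vM21), Cldn5 lies at chr16:18776847-18778262 as a gene of 1 exon, and Ocln at chr13:100496507-100552718, Tjp1 at chr7:65296165-65527781 and Cdh5 at chr8:104101625-104144511. Of the carriers, Slc2a1 lies at chr4:119108711-119137983, Slc7a5 at chr8:121881150-121907694, Mfsd2a at chr4:122946850-122961188 and Slco1a4 at chr6:141805440-141856199, and of the pumps Abcb1a at chr5:8660077-8748575 and Abcg2 at chr6:58584523-58695676. The counts are per gene, so transcripts of 1 gene were not told apart.

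In endothelial barcodes 9 of the 10 genes were 2-fold or more above all other barcodes of the same library in ULI, 9 in ULC and 10 in control, where 14.0%, 10.7% and 15.2% of all genes measured were. The exception in ULI and ULC was Mfsd2a. The genes fell into some that were nearly confined to endothelium and some that other cells share, as the plot of levels by class shows.

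**Figure D1:**
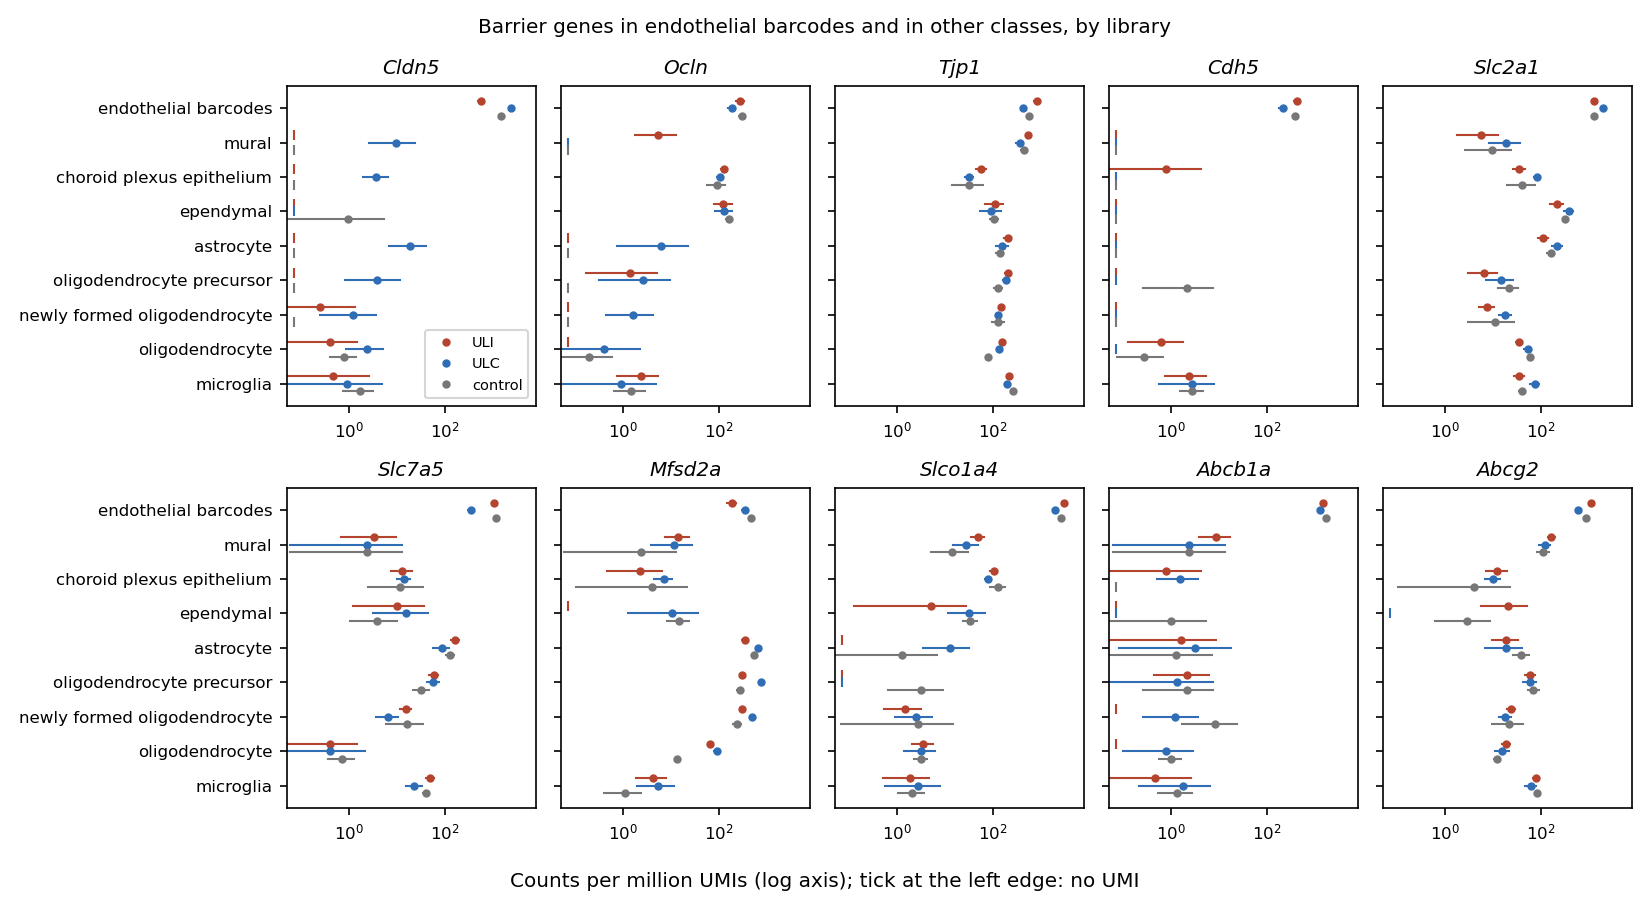
CPM of each gene (log axis) in endothelial barcodes and in 8 other classes, with ULI, ULC and control in separate colours, points for levels and lines for exact 95% Poisson intervals, and a tick at the left edge where no UMI was found. Cldn5, Cdh5 and Abcb1a stand to the right of every other class drawn (where a class had UMIs, the lowest ratio was 79.0 for Cdh5 over microglia in ULC, on 3 UMIs with an interval of 26.5 to 387, and against classes without UMIs the lowest bound was 13.6-fold, for Cdh5 over ependymal cells in ULC), Tjp1 is spread over nearly all classes, and Mfsd2a is higher in astrocytes (352, 677 and 554 CPM in ULI, ULC and control) than in endothelial barcodes (186, 353 and 478 CPM).

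Cldn5, which encodes claudin-5, the main claudin of brain endothelial tight junctions, stood at 571 CPM (500 to 649) in ULI, 2496 (2380 to 2616) in ULC and 1480 (1408 to 1555) in control endothelial barcodes. In mural cells, which wrap the same vessels, it had 0, 4 and 0 UMIs. Endothelium was at least 175-fold higher than mural cells in ULI and at least 212-fold higher in control, if 3 counts in the library are taken as the floor, and 266 times as high in ULC (104 to 977). Over all other barcodes it stood at 0.296, 4.4 and 0.931 CPM. Cdh5, which encodes VE-cadherin of adherens junctions, stood at 424 CPM (363 to 492), 212 (179 to 249) and 393 (357 to 433) in ULI, ULC and control endothelium. Among other classes with at least 50 barcodes its highest level was in microglia, at 2.31, 2.68 and 2.77 CPM. The few leptomeningeal fibroblasts (26, 29 and 26 barcodes) gave 134, 57.5 and 131 CPM.

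Ocln, which encodes occludin, a membrane protein of tight junctions in many barriers, stood at 282 CPM (233 to 338), 189 (158 to 224) and 301 (269 to 336) in ULI, ULC and control endothelium. It was also found in the epithelia of the ventricle, at 130, 104 and 91.6 CPM in choroid plexus and at 125, 129 and 163 CPM in ependymal cells, and at 6.24 CPM or less in mural cells, astrocytes, microglia and the oligodendrocyte lineage. In ULC the ratio of endothelium to ependymal cells was 1.46 (0.946 to 2.34), an interval that includes 1. Tjp1, which encodes the scaffold ZO-1 beneath tight junctions, was the broadest of the 10, at 829 (743 to 922), 435 (387 to 486) and 567 CPM (523 to 614) in endothelium. Mural cells had 557, 366 and 449 CPM, so that endothelium was 1.49, 1.19 and 1.26 times as high, and the interval of the second (0.976 to 1.45) includes 1. The few fibroblasts had 654, 518 and 352 CPM, microglia 223, 202 and 267 CPM and astrocytes 207, 156 and 138 CPM.

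Slc2a1 encodes GLUT1, the glucose carrier of brain endothelium and also of glia. Its level was 1287 CPM (1179 to 1402) in ULI, 2017 (1913 to 2125) in ULC and 1283 (1216 to 1352) in control endothelium. The next class in every library was ependymal cells, at 211, 378 and 322 CPM, and astrocytes followed at 109, 218 and 161 CPM. Slc7a5 encodes LAT1, which carries large neutral amino acids. It stood at 1071 (973 to 1177), 353 (310 to 400) and 1196 CPM (1131 to 1263) in endothelium and next highest in astrocytes, at 163, 87.3 and 132 CPM. Mfsd2a encodes the carrier of lysophosphatidylcholine, through which docosahexaenoic acid enters the brain, and was the 1 gene of the 10 that was not highest in endothelium in any library. Endothelium had 186 (147 to 233), 353 (310 to 400) and 478 CPM (438 to 522). Astrocytes had 352, 677 and 554 CPM, oligodendrocyte precursors 314, 776 and 279 CPM, and newly formed oligodendrocytes 309, 490 and 242 CPM. Inside the endothelial-like cluster Mfsd2a stood at 247, 586 and 616 CPM, so that in control it passed the astrocytes.

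Slco1a4, which encodes the organic anion carrier OATP1A4, stood at 3013 (2847 to 3186), 1978 (1876 to 2085) and 2656 CPM (2559 to 2755) in ULI, ULC and control endothelium, and at 106, 78.5 and 127 CPM in choroid plexus, where it is also known. Abcb1a encodes P-glycoprotein, the pump that limits the entry of many drugs. It stood at 1459 (1344 to 1581), 1291 (1208 to 1378) and 1712 CPM (1635 to 1793) in endothelium, and at 8.71 CPM or less in each other class with at least 50 barcodes. Abcg2, which encodes the breast cancer resistance protein, another pump of the luminal membrane, stood at 1103 (1004 to 1210), 588 (532 to 647) and 855 CPM (800 to 912). Mural cells followed at 163, 120 and 112 CPM, the few fibroblasts had 268, 211 and 27.6 CPM, and microglia had 79.9, 60.7 and 81.7 CPM.

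Near copies of these genes took few UMIs. In ULI, ULC and control endothelial barcodes, Abcb1b had 0, 1 and 5 UMIs, Slco1a5 2, 2 and 2, Slco1a6 0, 0 and 0, and Slc2a3 1, 2 and 6. Slc7a8, the LAT2 relative of Slc7a5, had 22, 21 and 26 UMIs.

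Next the 3 libraries were compared within endothelial barcodes. In ULI, 2 of the 10 genes stood 2-fold or more below control (Cldn5 and Mfsd2a) and 0 above, where 14.9% and 9.60% of the 8144 genes measured did so. In ULC, 1 stood 2-fold or more below control (Slc7a5) and 0 above, where 12% and 14.2% of 8956 genes did. In ULI against ULC, 2 were 2-fold or more higher (Slc7a5 and Cdh5) and 1 lower (Cldn5), where 10.9% and 17.6% of 7550 genes were. Each count is 0, 1 or 2 of 10, beside those shares over all genes. The median log2 ratio over the 10 was -0.04 for ULI to control, -0.43 for ULC to control and 0.59 for ULI to ULC, beside -0.05, -0.08 and 0.08 over all genes. Inside the cluster these medians were 0.14, -0.02 and 0.38, beside -0.08, -0.09 and 0.06 over all genes, so the median for ULC to control lay near 0. There ULI to control had 2 genes lower and 0 higher (15.9% and 7.63% of 6709 genes), the same 2 as before. ULC to control had Slc7a5 lower and Cldn5 and Slc2a1 higher (12.3% and 11.2% of 7170 genes). ULI to ULC had Cldn5 and Mfsd2a lower and Slc7a5 higher (16.0% and 9.72% of 5370 genes), with Cdh5 within 2-fold.

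**Figure D2:**
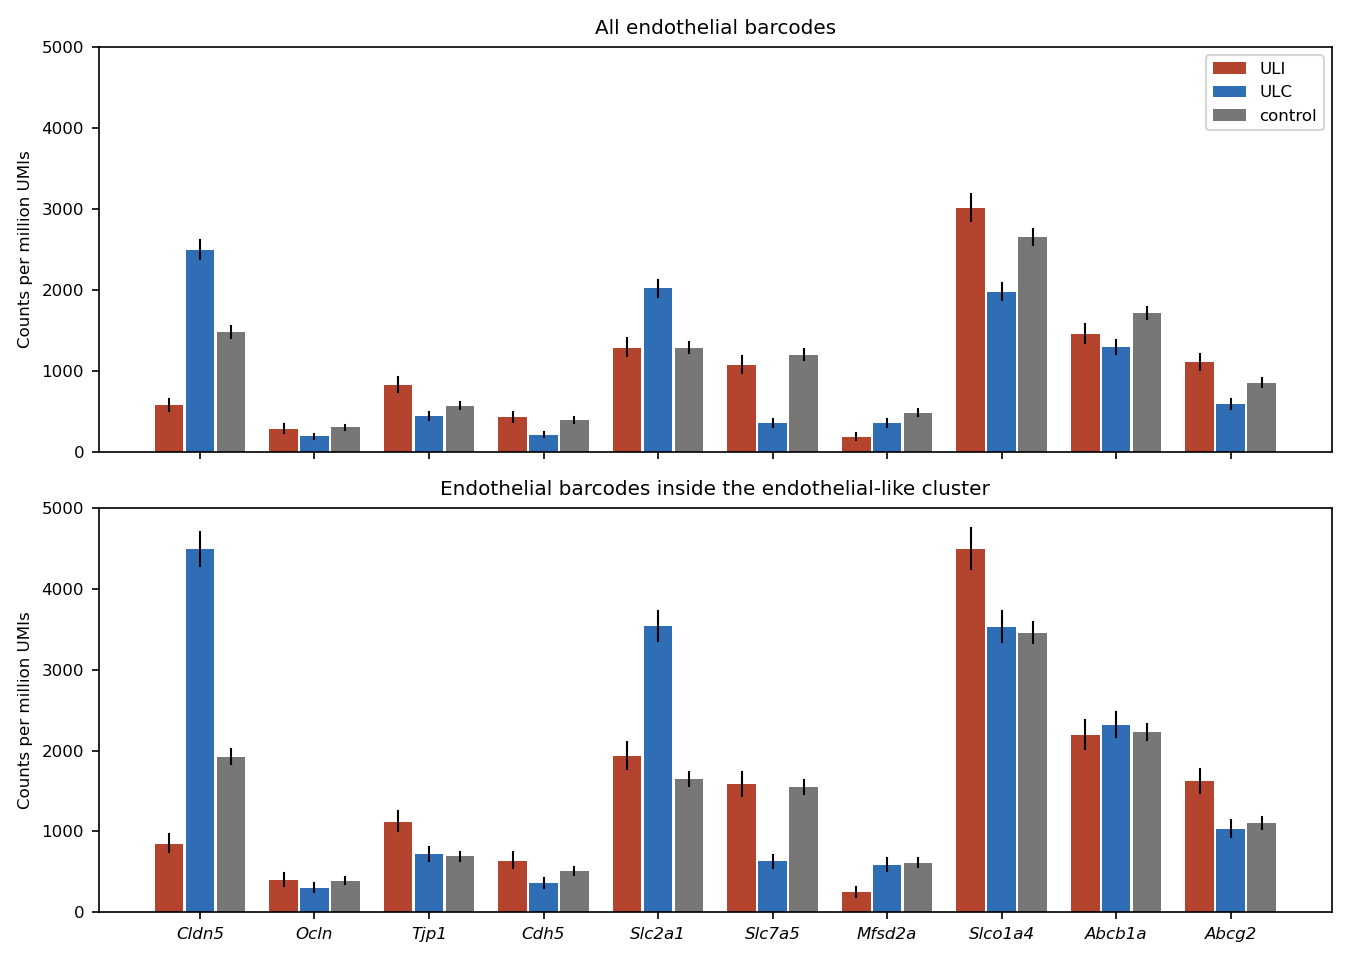
CPM of each gene in ULI, ULC and control (bars from left to right), over all endothelial barcodes (upper panel) and over those inside the endothelial-like cluster (lower panel), with exact 95% Poisson intervals of 1 library each. Cldn5 is lowest in ULI and highest in ULC in both panels, and the ULC bars of Slco1a4 and Abcg2, lowest in the upper panel, come close to control in the lower.

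Cldn5 was more than 2-fold lower in ULI than in ULC in both sets. Its log2 ratio was -1.37 (-1.58 to -1.17) for ULI to control, 0.75 (0.66 to 0.85) for ULC to control and -2.13 (-2.33 to -1.93) for ULI to ULC. Inside the cluster its levels were 849, 4486 and 1926 CPM in ULI, ULC and control, with log2 ratios of -1.18 (-1.39 to -0.98), 1.22 (1.12 to 1.32) and -2.40 (-2.61 to -2.20). Cldn5 UMIs were found in 55.0%, 73.9% and 82.1% of endothelial barcodes, and in 0%, 1.58% and 0% of mural barcodes (medians of 2117, 2220 and 2842 UMIs), where the upper limits of the intervals were 0.898%, 4.54% and 2.49%. When each barcode was thinned to 1000 UMIs, which left 99, 129 and 168 endothelial barcodes and removed 21, 36 and 16 shallower ones, the shares were 42.4% (32.5 to 52.8), 69.8% (61.1 to 77.5) and 68.5% (60.8 to 75.4). The barcode richest in Cldn5 held 12%, 6.07% and 2.53% of its UMIs, so no barcode held more than 12% of them. Over the thinned UMIs the ULI to control log2 ratio was -0.92, short of 2-fold.

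Of the other junction genes, Ocln had log2 ratios of -0.09 (-0.41 to 0.22) for ULI to control, -0.67 (-0.98 to -0.38) for ULC to control and 0.58 (0.21 to 0.95) for ULI to ULC. Tjp1 stood at 0.55 (0.35 to 0.74), -0.38 (-0.59 to -0.18) and 0.93 (0.70 to 1.16), and Cdh5 at 0.11, -0.89 and 1.0. Inside the cluster Ocln stood at 399, 301 and 387 CPM in ULI, ULC and control, Tjp1 at 1123, 717 and 691 CPM, and Cdh5 at 639, 365 and 511 CPM. The log2 ratios of ULC to control were then -0.36 for Ocln, 0.05 (-0.16 to 0.26) for Tjp1 and -0.48 (-0.77 to -0.21) for Cdh5. The junction genes thus did not move together: inside the cluster Cldn5 was lower in ULI than in ULC and the other 3 were higher.

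**Figure D3:**
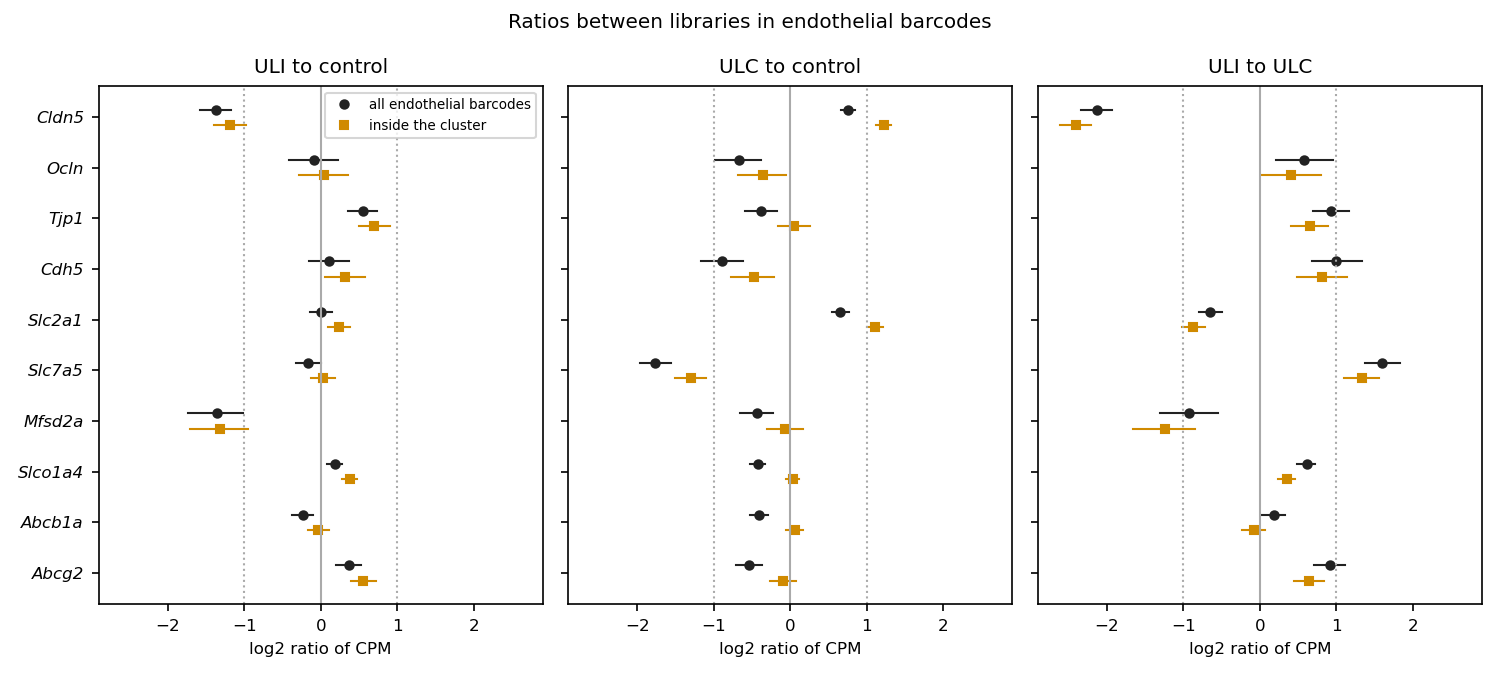
Log2 ratios of CPM in 3 panels (ULI over control, ULC over control, ULI over ULC), over all endothelial barcodes (circles) and over those inside the cluster (squares), with exact 95% binomial intervals and dotted lines at 2-fold. Slc7a5 lies left of -1 in ULC to control by both sets, while Slco1a4, Abcb1a, Abcg2 and Tjp1 lie left of 0 for all endothelial barcodes and within 0.10 of 0 inside the cluster.

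The carriers of nutrients differed from each other. Slc7a5 stood at -0.16 (log2) for ULI to control, -1.76 for ULC to control and 1.60 for ULI to ULC. Inside the cluster its levels were 1581 CPM (1434 to 1738) in ULI, 630 (553 to 714) in ULC and 1550 (1466 to 1638) in control, log2 ratios of 0.03 (-0.13 to 0.19) for ULI to control, -1.30 (-1.50 to -1.10) for ULC to control and 1.33 (1.10 to 1.56) for ULI to ULC. After thinning, Slc7a5 was found in 49.5%, 30.2% and 61.3% of endothelial barcodes. Slc2a1 ran the other way, with log2 ratios of 0.00 for ULI to control, 0.65 for ULC to control and -0.65 for ULI to ULC. Its levels inside the cluster were 1935 (1773 to 2108), 3535 (3350 to 3726) and 1644 CPM (1557 to 1734), and ULC to control was then 1.10 (1.0 to 1.21). Mfsd2a stood at -1.36 (log2) for ULI to control, -0.44 for ULC to control and -0.92 for ULI to ULC, on 76 UMIs in ULI, 247 in ULC and 512 in control. Inside the cluster these came to -1.32 (-1.71 to -0.95), -0.07 (-0.30 to 0.16) and -1.24 (-1.66 to -0.85). Mfsd2a was found in 14.1% (7.95 to 22.6), 33.3% and 36.9% of thinned endothelial barcodes, so ULI stood below both other libraries.

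The organic anion carrier and the pumps stayed within 2-fold in the 3 comparisons, both over all endothelial barcodes and inside the cluster. Inside the cluster Abcb1a stood at 2190 CPM (2017 to 2373) in ULI, 2319 (2170 to 2475) in ULC and 2229 (2128 to 2333) in control, with ULI to control at -0.03 (-0.16 to 0.11) and ULC to control at 0.06 (-0.06 to 0.17) on the log2 scale. Slco1a4 stood at 4491, 3527 and 3453 CPM, with 0.38 (0.28 to 0.48) and 0.03 (-0.06 to 0.12). Abcg2 stood at 1618, 1036 and 1102 CPM, with 0.55 (0.39 to 0.72) and -0.09 (-0.26 to 0.08). Over all endothelial barcodes the ULC to control values of these 3 were -0.41, -0.42 and -0.54. Summed over the 10 genes, the log2 ratio turned sign between the sets for ULI to control (-0.09 over all endothelial barcodes and 0.10 inside the cluster), for ULC to control (-0.14 and 0.31) and for ULI to ULC (0.05, with an interval of -0.01 to 0.10, and -0.22).

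Some of these differences were also found in cells that are not endothelial. Slc2a1 was lower in ULI than in ULC in 7 of the 7 other classes with at least 20 of its UMIs, with log2 ratios of -1.29 to -0.59 and an interval below 0 in 6. Mfsd2a was lower in ULI than in ULC in 5 of 5 other classes, at -1.65 to -0.45, among them astrocytes (-0.94) and oligodendrocyte precursors (-1.31). In ULI to control, though, Mfsd2a stood at -0.66 in astrocytes and at 0.17 in oligodendrocyte precursors, against -1.36 in endothelium. Slc7a5 was higher in ULI than in ULC in 4 of 5, at 0.90 in astrocytes, 1.09 in microglia, 1.24 in newly formed oligodendrocytes, 0.02 in oligodendrocyte precursors and -0.11 in choroid plexus. Tjp1 was higher in ULI than in ULC in 10 of 10, at 0.10 to 0.85, with an interval above 0 in 4. For Cldn5 no other class held 20 UMIs in a pair of libraries, so no such comparison could be made. Mural, astrocyte and ependymal barcodes of all 3 libraries lay in the same clusters, but most microglia lay in cluster 3 in ULI, 12 in ULC and 0 in control, most oligodendrocyte precursors in cluster 6 in ULI and control and 22 in ULC, newly formed oligodendrocytes in cluster 11 in ULI and 5 in ULC, oligodendrocytes most often in cluster 8 in ULI, 14 in ULC and 9 in control (616 barcodes, beside 614 in cluster 2), and choroid plexus most often in cluster 1 in ULI and ULC. The deeper plexus barcodes lay in cluster 23 in ULI (99 barcodes) and cluster 18 in ULC (267), with medians of 9371 and 9113 UMIs over those clusters, against 673 in cluster 1, and control had 17 barcodes in cluster 23 and 9 in cluster 1. These values share the 3 libraries with the endothelial ones, and the difference between endothelium and the other classes was not tested.

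**Figure D4:**
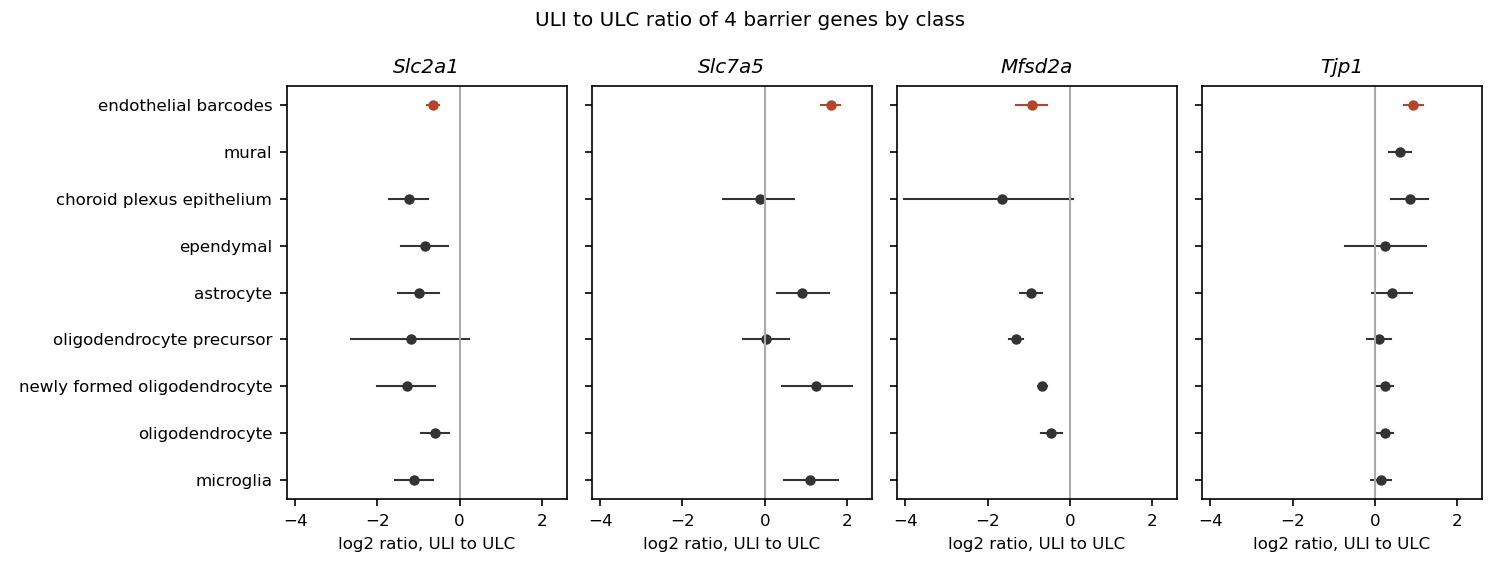
Log2 ratio of ULI to ULC for Slc2a1, Slc7a5, Mfsd2a and Tjp1 (panels) in endothelial barcodes and in other classes with at least 20 UMIs in the pair (rows), with exact 95% binomial intervals. Every Slc2a1 and Mfsd2a point lies left of 0, and the Slc7a5 points lie right of 0 in all classes drawn but choroid plexus.

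The ratios moved with the GC content of transcripts across all genes. In endothelial barcodes genes were put into 10 bins of GC content, and the median log2 ratio of the bin richest in GC was -0.50 for ULI to control, 0.37 for ULC to control and -0.94 for ULI to ULC, and that of the poorest bin was 0.13, -0.23 and 0.38. Spearman's rho of the ratio with GC was -0.22, 0.18 and -0.34 across 7747, 8470 and 7175 genes, which share the libraries and are not independent replicates. Cldn5, a gene of 1 exon, has the highest GC content of the 10 at 60.5%, and Abcg2 the lowest at 39.2%. Less the median of the genes in its own GC bin, Cldn5 stood at -0.87 for ULI to control, 0.38 for ULC to control and -1.19 for ULI to ULC, so that only the last passed 2-fold. Slc7a5 (GC 56.3%) then stood at -1.86 for ULC to control and 2.10 for ULI to ULC, and Mfsd2a (54.2%) at -1.17 for ULI to control. Both of these genes ran past 2-fold with and without this step. It was added after the data were seen.

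**Figure D5:**
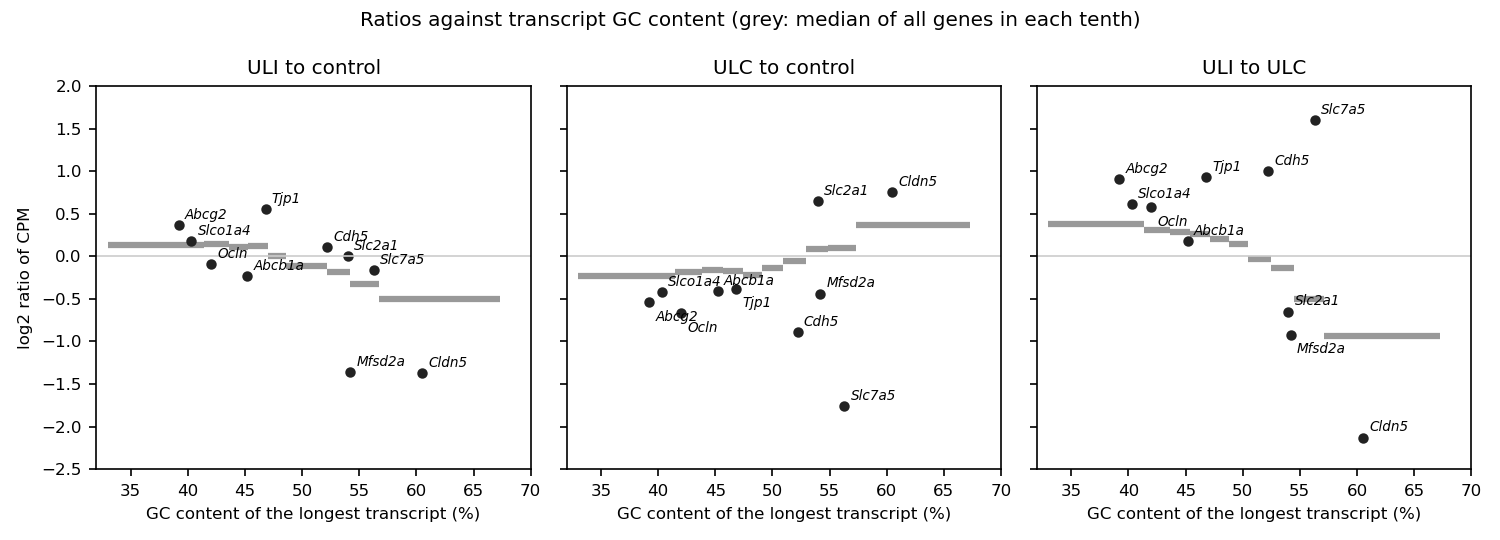
Log2 ratio of CPM in endothelial barcodes against the GC content of the longest transcript, for the 10 genes (points) and for all genes measured (grey bars, the median of each of 10 bins of GC content), for the 3 comparisons. Cldn5 lies at the GC-rich end and on the same side of 0 as the grey bars there, whereas Slc7a5 lies on the other side in ULC to control and ULI to ULC.

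Single barcodes held several of the genes at once. The median number of the 10 found per endothelial barcode was 7 in ULI, 6 in ULC and 9 in control, and 5, 5 and 6 after thinning to 1000 UMIs. At least 5 of the 10 were found in 62.6%, 62.8% and 75% of thinned endothelial barcodes, and in 0% of thinned mural barcodes, whose mean was 0.530, 0.419 and 0.404 genes. None of the 10 was found in 4, 4 and 4 endothelial barcodes before thinning.

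Vessel types within the endothelium differed too. Arterial barcodes (UMIs of at least 2 of Bmx, Gkn3, Sema3g, Vegfc and Efnb2) numbered 14 in ULI, 8 in ULC and 20 in control. In them Slc2a1 stood at 2879, 5151 and 2553 CPM, against 1777, 3397 and 1510 CPM in the other barcodes inside the cluster, and Slc7a5 at 463, 32.8 and 1220 CPM, against 1768, 681 and 1599 CPM. Inside the cluster the arterial barcodes were thus richer in Slc2a1 and poorer in Slc7a5 in all 3 libraries. Their Slc7a5 levels rested on 18 UMIs in ULI, 1 in ULC and 129 in control. Over all endothelial barcodes the others held 1136, 368 and 1193 CPM of Slc7a5. In control the arterial barcodes (1220 CPM) were thus not poorer there, and the 2 values lay close together. Plvap, a gene of fenestrated vessels that lack a barrier, had 1 UMI in ULI, 45 in ULC and 0 in control. The 8 ULC barcodes with Plvap held 0 CPM of Cldn5 and 22.3 CPM of Slc7a5, against 2667 and 376 CPM in ULC barcodes without it, but 514 CPM of Abcg2, against 593. Barcodes with UMIs of at least 2 venous genes (Nr2f2, Vwf, Slc38a5, Lcn2 and Ackr1), a split added after the data were seen, numbered 15, 49 and 23, all inside the cluster. In them Cldn5 stood at 1054, 4316 and 2028 CPM, and in the others inside the cluster at 778, 4654 and 1889 CPM, so the order of the libraries was the same in both. These splits rest on detection, and deeper barcodes meet them more easily.

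Over all 30 combinations of class and library with at least 50 barcodes, Abcb1a followed the mean of the 10 genes most closely (Pearson r = 0.954 on log2(CPM + 10)), then Cdh5 (0.952) and Cldn5 (0.949), and Mfsd2a least (0.498). These r values are descriptive, since the combinations share libraries and the mean holds each gene. Of 6606 other genes with at least 50 UMIs in endothelial barcodes, those nearest to the mean were Hspa12b (0.957), Sox7 (0.957), Cyyr1 (0.956), Sox17 (0.956) and AU021092 (0.956). That filter favours genes held by endothelium, so the ranking is descriptive and was not tested. Sox7 and Sox17 encode transcription factors of endothelium.

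Other genes of the barrier were read from lists. Of 16 other carriers, 5 stood 2-fold or more below control in ULI and 0 above, with a median log2 ratio of -0.80, where 14.9% and 9.60% of all genes stood so. In ULC 8 stood below and 2 above, with a median of -0.97, where 12% and 14.2% of all genes did. Inside the cluster 3 stood below and 0 above in ULI (median -0.66), and 2 below and 2 above in ULC (median -0.61). Most of the 8 were thus no longer called there. Of all genes inside the cluster, 15.9% stood below and 7.63% above in ULI, and 12.3% and 11.2% in ULC. Slc22a8, an organic anion carrier, stood at -1.53 (-1.79 to -1.27) in ULI. Tfrc, the transferrin receptor that brings in iron, stood at -1.73 (-1.84 to -1.62) in ULC. Its levels were 1589 CPM in ULI, 1176 in ULC and 3892 in control over all endothelial barcodes, and 2356, 2090 and 5043 CPM inside the cluster. Slc7a1, a carrier of cationic amino acids, stood at -1.54 in ULC. The glutamine carriers Slc38a3 and Slc38a5 ran the other way in ULC, at 1.16 and 1.47, while Slc38a3 stood at -1.97 (-3.08 to -1.04) in ULI. The highest in ULI were the thiamine carrier Slc19a3 at 0.32 and the pump Abcc4 at 0.25.

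Of 12 other junction genes, 10 were measured in ULI to control (1 lower by 2-fold or more, 1 higher on 10 and 13 UMIs, Cldn12, median -0.14) and 9 in ULC to control (1 lower, 0 higher, median -0.31). Jup, which encodes plakoglobin, stood at -1.15 in ULI and 0.37 in ULC, and the adhesion gene Jam2 at -1.07 in ULC. Of 16 regulators of Wnt signalling and barrier formation, 2 were lower and 0 higher in ULI (median -0.53), and 4 and 0 in ULC (median -0.72). The share lower over all genes was 14.9% in ULI, above that of this list, and 12% in ULC. Inside the cluster 2 were lower and 0 higher in ULI (median -0.38), and 1 was lower (Foxq1) and 2 higher in ULC (median -0.30). Apcdd1, a Wnt target and inhibitor, stood at -2.19 (-3.23 to -1.31) in ULI, while its value in ULC was 0.62 (0.27 to 0.98). Lef1, a transcription factor of the Wnt pathway, stood at -0.92 in ULI, and Foxq1 and the receptor Fzd6 at -1.49 and -1.33 in ULC. Of the caveolae and fenestration list, 0 of 4 genes in ULI and 2 of 5 in ULC passed 2-fold, Cav2 at -1.18 and Plvap, with 0 UMIs in control, as a bound. Of 6 basement membrane genes, 1 was lower in ULI (Hspg2, -1.14) and 2 in ULC (Nid1 at -1.46 and Hspg2 at -1.09), and 0 in either inside the cluster. Of the 9 other junction genes measured there, 1 was lower in ULI (Jup) and 0 in ULC. Of 5 arterial genes measured, 1 was higher in each comparison with control, Bmx on 25 UMIs in ULI, 25 in ULC and 15 in control (medians 0.42 and -0.21). Over all genes 14.9% were lower and 9.60% higher in ULI, and 12% and 14.2% in ULC. Inside the cluster these shares were 15.9% and 7.63% in ULI, and 12.3% and 11.2% in ULC. The counts of these lists rest on few genes and are not read as results about the lists.

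Of 6 genes listed under leukocyte adhesion, 3 had enough UMIs to be measured in ULI and 4 in ULC. These were 2-fold or more higher than control, with medians of 2.58 and 2.55, where 9.60% and 14.2% of all genes measured were. Of the rest, Icam2 had 0 UMIs in ULI, against 9 in control, Sele had 1, 4 and 4 UMIs in ULI, ULC and control, and Selp had 0 in each. Vcam1 stood at 262 CPM in ULI, 247 in ULC and 43.9 in control (log2 ratios 2.58 and 2.49), Ackr1 at 201, 144 and 14.9 CPM (3.75 and 3.27), and Icam1 at 64.3 in ULC, against 11.2 in control (2.52). Lcn2, which encodes lipocalin-2, stood at 157, 768 and 14.9 CPM (3.39 and 5.68). Few barcodes carried these genes: Vcam1 was found in 18 ULI, 35 ULC and 11 control barcodes, with 29.0%, 20.8% and 27.7% of its UMIs in 1 of them. Inside the cluster Vcam1 stood at 380, 396 and 40.1 CPM and Lcn2 at 236, 1380 and 19.5 CPM. Icam1 in ULI rested on 11 UMIs, against 12 in control (1.27, -0.06 to 2.57). Of the 5 venous genes, 3 were 2-fold or more higher in ULI and 4 in ULC, with medians of 1.31 and 2.37, and Slc38a5 stood at -0.59 in ULI. Ackr1, which encodes a chemokine receptor, is on this list and on the adhesion list, so it is counted in each. Slc38a5 is likewise counted both here and among the other carriers, at 1.47 in ULC. The counts of the adhesion and venous lists were as many inside the cluster. Of the glucocorticoid-responsive genes, 4 of 8 were higher in ULI and 4 of 9 in ULC, with 0 lower (medians 0.75 and 0.98), among them Fkbp5 at 2.36 and 2.31, and Errfi1 at 2.31 in ULI and Sgk1 at 1.28 in ULC. Of 9 immediate early genes, 3 were higher in ULI (Fos at 1.5 and Egr1 at 1.42 highest, median -0.09) and 3 in ULC (Fosb at 2.58 and Ier2 at 2.13 highest, median 0.57). Inside the cluster the glucocorticoid-responsive genes numbered 2 higher and 1 lower of 7 in ULI and 4 and 0 of 7 in ULC. The immediate early genes there numbered 1 higher and 1 lower in ULI and 4 and 0 in ULC. In ULI Fos then stood at 1.25 and Egr1 at 0.43. Egr1 had 83 UMIs in ULI inside the cluster, against 277 over all endothelial barcodes. Over all genes the shares higher than control were 9.60% in ULI and 14.2% in ULC, and inside the cluster 7.63% and 11.2%. The shares lower inside the cluster were 15.9% and 12.3%. Both comparisons share the control library, which therefore enters each ratio.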

How the data were processed

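Transcripts of single cells were counted in 3 pooled samples. Sources differ on the platform: the paper gives 10X, the record of the series Drop-seq and those of the samples BD Rhapsody. The table deposited by the authors holds raw UMI counts per gene and barcode. The submitters' processing notes name CASAVA 1.8, UMI-tools, Seurat and mm10. For the aligner, the gene annotation and cell calling, the entry is: not given in the sources used here. Barcode names in the table are running numbers, so barcodes shared between libraries could not be compared by name, and 0 barcodes held identical counts.

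Barcodes with at least 200 genes were kept and clustered without the 10 genes (scanpy 1.11.5, 2000 variable genes, 30 components, 20 neighbours, Leiden resolution 1.0, seed 1, 28 clusters), and clusters were named from fixed markers. UMIs were summed per class and library. With 1 library per group, no test was run. A ratio was called at 2-fold with at least 20 UMIs in the pair, and a bound against 0 UMIs used a floor of 3 counts. Doublets were marked with Scrublet and kept. Where its own call marked very few barcodes of a library, those with the highest scores were marked instead. The cut-off may thus differ between libraries. In all, 237 ULI, 213 ULC and 44 control barcodes were marked. The intervals of the ratios were tested on simulated data. GC content and positions came from GENCODE vM21 on mm10. Python 3.11.15 and R 4.3.3 were used, with edgeR 4.0.16 and DESeq2 1.42.0 for scaling factors only. TMM factors were 1.01, 0.970 and 1.02 for ULI, ULC and control.

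The 10 genes, the 11 lists and the alternatives were chosen with earlier results of these data known. Named beside the 10 genes are, of each list, up to 2 highest and 2 lowest ratios with at least 50 UMIs, and the 5 genes of most similar profile. Cldn12, Bmx, Abcb1b, Slco1a5, Slco1a6, Slc2a3, Slc7a8, Icam2, Sele, Selp and Plvap were given after their values were seen. So were the levels, counts, arterial values and ratios of list genes inside the cluster.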

Additional observations from a re-analysis of the deposited data

Results flagged for a closer look

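In endothelial barcodes 4 of the 10 genes stood on opposite sides of control in the 2 UL libraries, with both intervals leaving out 0. The share of all genes that did so is not given here, so this count cannot be set against a background. The log2 ratio of Cldn5 was -1.37 for ULI to control and 0.75 for ULC to control, that of Tjp1 0.55 and -0.38, that of Slco1a4 0.18 and -0.42, and that of Abcg2 0.37 and -0.54. The difference between the sides was not tested, since each was 1 library, and both ratios share the control. Inside the endothelial-like cluster only Cldn5 of these 4 kept opposite signs with intervals that leave out 0, at -1.18 and 1.22. There ULC to control stood at 0.05 for Tjp1, 0.03 for Slco1a4 and -0.09 for Abcg2. Cdh5, not among the 4, stood at 0.32 and -0.48 there, with both intervals leaving out 0.

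UMIs of the 10 genes were also found in barcodes with fewer than 200 genes, which entered no comparison: 41 in ULI, 58 in ULC and 7 in control. These are 298, 220 and 39.0 CPM, above the 21.8, 11.4 and 16.7 CPM that 3 counts would give.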

How the results depend on the processing

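The 30 ratios of the 10 genes between libraries were recomputed under 18 settings, 3 of them (GC content, the cluster with GC content, and leaving out venous barcodes) chosen after seeing the data. Of 540 values, 398 stayed inside the interval of the reported ratio, 137 moved outside it and 5 reversed, that is, had the opposite sign with both intervals leaving out 0. A further 19 of the 540 had the opposite sign with an interval that includes 0. Slc7a5, ULI to control, reversed to 0.17 less the GC median and to 0.35 inside the cluster less the GC median, and in that setting Slco1a4 and Abcb1a, ULC to control, reversed to 0.26 and 0.24 and Abcb1a, ULI to ULC, to -0.32. Over all settings Cldn5 ran over -1.51 to -0.63 for ULI to control, 0.38 to 1.23 for ULC to control and -2.41 to -1.19 for ULI to ULC, Slc7a5 over -2.19 to -1.28 for ULC to control and 1.29 to 2.10 for ULI to ULC, Mfsd2a over -1.43 to -1.08 for ULI to control, and Cdh5 over 0.81 to 1.23 for ULI to ULC.

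Summed over the 10 genes, ULI to control (-0.09) became 0.07 with at least 3 of the 4 markers, 0.10 with the rule inside the cluster, 0.09 with the cluster alone, 0.00 after thinning, -0.00 as the mean over barcodes, -0.04 less the GC median and 0.19 inside the cluster less the GC median. ULC to control (-0.14) became 0.23 with 3 markers, 0.31 with the rule inside the cluster, 0.30 with the cluster alone, 0.10 after thinning, 0.12 as the mean over barcodes, -0.07 without mural-marked barcodes, -0.06 without Plvap barcodes, -0.07 with TMM factors, -0.04 with median-of-ratios factors, -0.04 with totals less mitochondrial, ribosomal, plexus and haemoglobin genes, -0.06 less the median of all genes, -0.62 without venous barcodes and 0.32 inside the cluster less the GC median. ULI to ULC (0.05) became -0.16 with 3 markers, -0.22 with the rule inside the cluster, -0.21 with the cluster alone, -0.03 without Plvap barcodes, -0.10 after thinning, -0.01 with TMM factors, -0.04 with median-of-ratios factors, -0.01 with the reduced totals, -0.13 as the mean over barcodes, -0.03 less the median of all genes, 0.49 without venous barcodes and -0.12 inside the cluster less the GC median. The 69 barcodes outside the cluster make up a larger part of the set once venous barcodes, all inside it, are left out. Why the sums moved was not tested for any setting.

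Among classes with at least 50 barcodes, 9 of the 10 genes were highest in endothelial barcodes in each library. The same held at Leiden resolution 2.0 and when clustered with the 10 genes. The leptomeningeal fibroblasts, with fewer than 50 barcodes, held more Tjp1 than endothelium in ULC (518 against 435 CPM). The share of all genes that were highest in endothelial barcodes is not given here. With at least 50 UMIs in place of 20, genes 2-fold or more higher and lower numbered 325 and 532 for ULI to control, 612 and 585 for ULC to control, and 334 and 563 for ULI to ULC. With at least 1 UMI they numbered 4942 and 1838, 4518 and 1804, and 4045 and 2410. Genes of few UMIs then enter. The floor of 3 counts, which stands in for a library without UMIs, can exceed the count of the other library. The numbers with at least 1 UMI therefore cannot tell genes that were higher from genes that were lower. No paired analysis was possible because each group was 1 pooled library, and for the same reason no replicate could be left out. Intervals cover counting error only, and differences between mice, dissections or libraries cannot be told apart from the groups.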
